A study of Arabidopsis thaliana with 36 samples.

Results

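Root bends of the wild type (WT, *Arabidopsis thaliana* accession Col-0) were compared at 18 and 12 h post-gravistimulation (hpg), the interval in which the lateral root primordium (LRP) passed from stage I to predominantly stage II in this study. The comparison rests on 6 of the 36 libraries of the series, 3 of WT bends at 18 hpg and 3 of WT bends at 12 hpg, and on all genes of the count table. Each sample pooled the bends of more than 400 seedlings that were 4 days old at gravistimulation and grew in continuous light. The other 30 libraries were *puchi-1* bends at 18 and 12 hpg, bends of both genotypes at 24, 30 and 36 hpg, and root segments without a primordium (‘No LR’) of both genotypes, with 3 libraries in each group. Of 37973 rows, 25889 genes held at least 15 reads over the 36 libraries and were tested. A bend holds every tissue of the root as well as the primordium, so fewer cells of a type and less RNA per cell cannot be told apart.

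Lateral roots arise from pericycle cells deep in the root, which divide to form a layered primordium that has to pass the endodermis, the cortex and the epidermis. The endodermis carries the Casparian strip, a lignin band in the wall, and later suberin lamellae, a polyester of long-chain fatty acids and glycerol. Cells over the primordium change their walls and their suberin as it grows, and the surface of the young primordium is coated by a cuticle made of cutin and wax. Suberin, cutin and wax share early steps: fatty acid activation and elongation, hydroxylation by P450 enzymes of the CYP86A family, transfer to glycerol by GPAT acyltransferases, and export by ABCG transporters.

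With all 36 libraries in the fit, the called genes were nearly all higher at 18 hpg, and they included the suberin hydroxylase gene *CYP86A1*, the cutin exporter gene *ABCG11*, a pair of CASP-like genes, and genes of lipase, peroxidase and cell wall protein families. A gene was called at an adjusted p under 0.05 with a log2FC beyond 1 or -1, by edgeR’s quasi-likelihood test on all 36 libraries. By this test 27 genes were called, which is 0.104% of the genes tested. Of these, 26 were higher at 18 hpg (0.1%) and 1 was lower (0.00386%). The 26 genes had a log2FC between 2.12 and 5.03 with a median of 3.16, against a median of 0 over all genes tested. Their adjusted p-values lay between 0.019 and 0.043, and in each of them all 3 libraries at 18 hpg lay above all 3 at 12 hpg. Over all genes, 8.19% had their 18 hpg libraries above those at 12 hpg in this way, and 10.9% had them below. At an unadjusted p under 0.05 the counts were 1403 genes higher (5.42%) and 1339 lower (5.17%).

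The number of genes called depended on which libraries shared the estimate of the spread. The 30 bend libraries alone, without ‘No LR’ segments, gave 542 called genes (2.13% of 25505), 322 higher (1.26%) and 220 lower (0.863%). The 6 libraries of the comparison alone gave 138 higher and 171 lower, so the share of higher genes among the calls differed between the fits. All 27 genes were among the 542. They also passed in that fit when each of the 6 WT libraries was left out in turn, with a largest adjusted p of 0.019. In the fit of 36 libraries, by contrast, the call was lost for all 27 genes when any library at 12 hpg or replicate 2 at 18 hpg was left out, and for 11 genes when replicate 1 or replicate 3 at 18 hpg was left out. The 26 genes had a median SD of 1.97 on the log2 scale among the 3 WT ‘No LR’ libraries, against 0.37 among the WT libraries at 18 hpg and 0.35 at 12 hpg. WT ‘No LR’ replicate 1 held the lowest of the 3 values for all 26 genes. Counts from the bend libraries alone are therefore given beside those of all 36 below, each named as such, with the range of each list’s count when 1 of the 6 libraries is left out, and no gene is said to have risen or fallen that passed in neither.

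**Figure D1:**
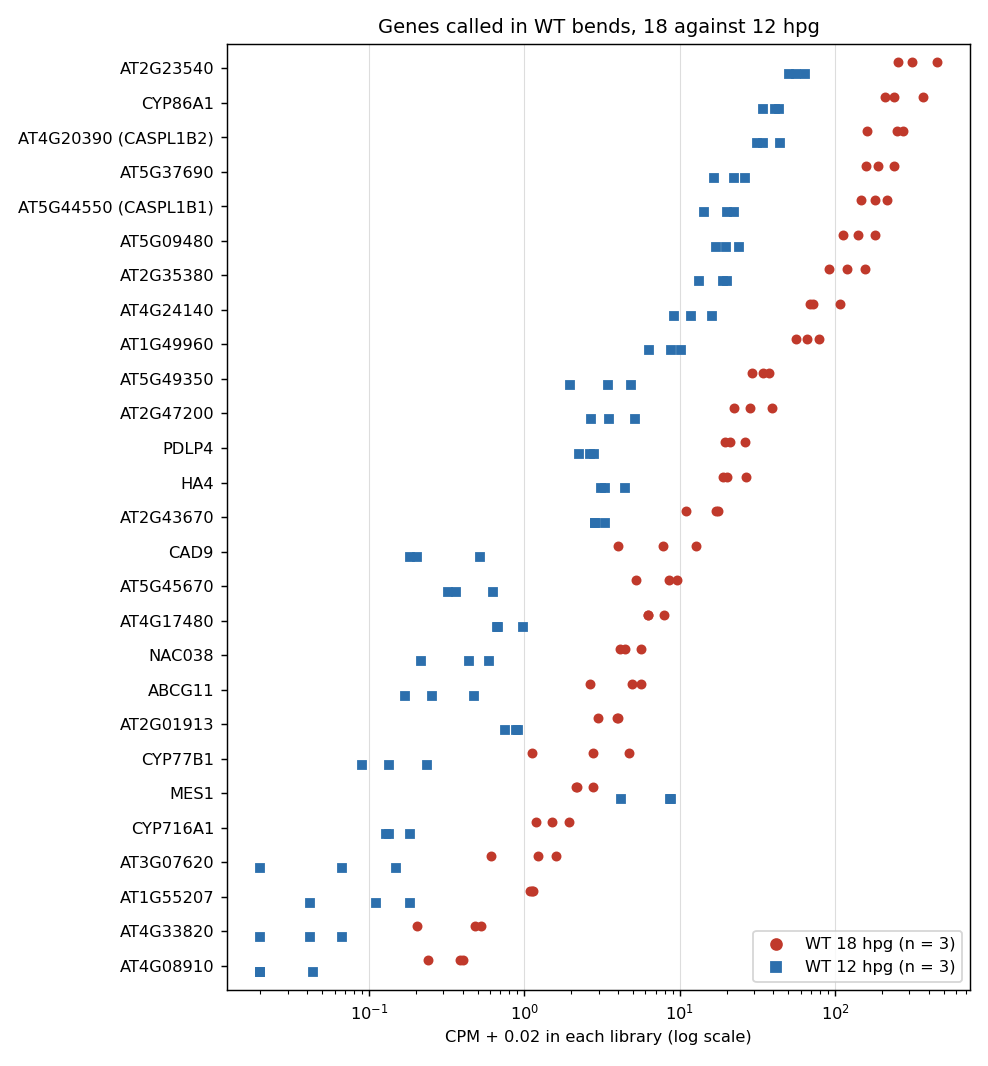
CPM plus 0.02 (log scale) of the 27 called genes in each library of WT bends at 18 hpg (circles) and 12 hpg (squares), with genes ordered by their mean at 18 hpg. In each gene except *MES1* the 3 circles lie to the right of the 3 squares, and the levels range from under 1 to over 100 CPM.

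Total counts were 39, 48.6 and 47.8 M (1000000) reads in replicates 1 to 3 at 18 hpg, against 51.2, 48.3 and 46.4 M at 12 hpg, so depth was alike in both groups. The dates in the sample titles name March, June and July for the 18 hpg libraries and June, July and August for those at 12 hpg. What the dates mark is not given, and the title of the June library at 12 hpg names a later year than that of the June library at 18 hpg, so the month is no shared date there. Between these 2 libraries the 26 genes were at least 5.44-fold higher at 18 hpg, and between the July libraries, of the same year, at least 3.86-fold. These libraries were among the 6 that called the genes, so higher values at 18 hpg were given in advance and do not test the month. With only the June and July libraries of both groups, edgeR called 0 genes. All markers of the endodermis, root hair, xylem and phloem lists had reads in each of the 6 libraries, as a whole root segment would hold. The summed level of 13 tested photosynthesis genes, which mark shoot or green tissue, was 277 to 441 CPM at 18 hpg, against 313 to 401 CPM at 12 hpg. Replicate 1 at 18 hpg stood apart in jasmonate genes: *JAZ1*, a repressor of the jasmonate response, had 79, 305 and 427 CPM at 18 hpg, against 241, 471 and 453 CPM at 12 hpg. Leaving out that library removed none of the 27 calls with the bend libraries alone.

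The fatty acid omega-hydroxylase CYP86A1, which makes the main aliphatic monomers of root suberin, was among the most abundant of the genes that rose. *CYP86A1* (AT5G58860) had 239, 365 and 209 CPM at 18 hpg, against 34.1, 41.2 and 43.4 CPM at 12 hpg. The lowest library at 18 hpg was thus well above the highest at 12 hpg, and the log2FC was 2.77 ± 0.54 (SE; adjusted p = 0.027). *ABCG11*, a transporter that exports cutin and wax precursors, had 2.61, 5.59 and 4.93 CPM at 18 hpg, against 0.151, 0.455 and 0.234 CPM at 12 hpg (log2FC 3.96 ± 0.75). It was present at low levels at 12 hpg in all 3 libraries. Another P450 gene, *CYP77B1*, had 1.1, 4.66 and 2.76 CPM at 18 hpg, against 0.216, 0.114 and 0.0701 CPM at 12 hpg, and *CYP716A1* had 1.17, 1.93 and 1.49 CPM at 18 hpg, against 0.108, 0.114 and 0.164 CPM at 12 hpg. Their log2FCs were 4.38 ± 0.83 and 3.56 ± 0.69, and in both the groups did not overlap.

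A set of 5 called genes encode hydrolases of families that include polymerizing and degrading enzymes of suberin and cutin. AT2G23540, a GDSL-like lipase, had 314, 450.3 and 252 CPM at 18 hpg, against 50.3, 55.7 and 63.8 CPM at 12 hpg (log2FC 2.58 ± 0.54). Per kb of exon this was 214 CPM at 18 hpg, against 145 CPM per kb for *CYP86A1*. AT5G37690, an SGNH esterase, had 188, 239 and 159 CPM at 18 hpg, against 16.5, 26.3 and 22.4 CPM at 12 hpg (log2FC 3.17 ± 0.57). AT5G45670, a further GDSL-like lipase, had far lower levels, 5.22, 9.6 and 8.56 CPM at 18 hpg, against 0.303, 0.341 and 0.608 CPM at 12 hpg, and a larger log2FC of 4.22 ± 0.75. The alpha/beta-hydrolase gene AT4G24140 had 72.3, 108 and 69.3 CPM at 18 hpg, against 9.11, 11.8 and 16.2 CPM at 12 hpg (log2FC 2.75 ± 0.54). Its family member AT4G17480 had 6.19, 7.86 and 6.2 CPM at 18 hpg, against 0.649, 0.956 and 0.655 CPM at 12 hpg (log2FC 3.16 ± 0.55). In all 5 genes the lowest library at 18 hpg lay far above the highest at 12 hpg.

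A pair of genes for CASP-like membrane proteins, relatives of the proteins that scaffold the Casparian strip, rose together. *CASPL1B1* (AT5G44550) had 182, 215 and 148 CPM at 18 hpg, against 14.3, 22.3 and 20.2 CPM at 12 hpg, with a log2FC of 3.26 ± 0.59. *CASPL1B2* (AT4G20390) had 251, 272 and 159.8 CPM at 18 hpg, against 31.3, 34.2 and 44.5 CPM at 12 hpg, with a log2FC of 2.63 ± 0.52. Both were among the 5 most abundant of the 26 genes per kb of exon, at 189 and 216 CPM per kb at 18 hpg. The annotated start of *CASPL1B2* overlaps 154 bases of AT4G20380 on the same strand, where reads of the 2 genes cannot be told apart. No other of the 27 genes overlapped a gene on its own strand.

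Genes for wall and secreted proteins made up a further group. AT5G09480, a hydroxyproline-rich glycoprotein, had 141, 181 and 113 CPM at 18 hpg, against 17.1, 19.9 and 24 CPM at 12 hpg (log2FC 2.83 ± 0.51). AT2G35380, of the peroxidase family whose members couple phenolics in the wall, had 119, 155 and 91.2 CPM at 18 hpg, against 13.3, 18.8 and 20.1 CPM at 12 hpg (log2FC 2.81 ± 0.51). AT5G49350, a glycine-rich protein, had 34.2, 37.4 and 29.1 CPM at 18 hpg, against 1.95, 3.41 and 4.86 CPM at 12 hpg (log2FC 3.30 ± 0.58). These 3 genes were well expressed at 18 hpg, with no library near those at 12 hpg. *CAD9*, of the cinnamyl alcohol dehydrogenase family that makes lignin alcohols, had 3.99, 12.8 and 7.73 CPM at 18 hpg, against 0.498, 0.182 and 0.164 CPM at 12 hpg. Its log2FC was 4.84 ± 0.90, and its 18 hpg libraries spread more widely than those of the genes above. AT2G43670, with an X8 carbohydrate-binding domain, had 17.7, 17.1 and 11 CPM at 18 hpg, against 2.81, 2.85 and 3.27 CPM at 12 hpg (log2FC 2.36 ± 0.45). The glycosyl hydrolase gene AT4G33820 held 52 reads in all at 18 hpg against 3 at 12 hpg. That ratio of 17.6 has a 95% interval of 5.69 to 87.9 that covers counting error only. The glycosyltransferase gene AT3G07620 had 1.57, 1.21 and 0.591 CPM at 18 hpg, against 0.13, 0 and 0.0468 CPM at 12 hpg.

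Transport and membrane genes followed the same course. AT1G49960, a xanthine/uracil permease, had 66.1, 79.1 and 56.4 CPM at 18 hpg, against 6.27, 8.81 and 10.2 CPM at 12 hpg (log2FC 3.00 ± 0.54). *HA4*, a proton pump of the plasma membrane, had 20.2, 26.9 and 18.9 CPM at 18 hpg, against 3.11, 3.28 and 4.44 CPM at 12 hpg (log2FC 2.60 ± 0.53). *PDLP4*, which encodes a plasmodesmata-located protein, had 21.1, 26.3 and 19.4 CPM at 18 hpg, against 2.23, 2.64 and 2.78 CPM at 12 hpg (log2FC 3.13 ± 0.58). In each the 3 libraries of a group lay close together beside the gap between the groups.

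Transcription factor genes numbered 2 of the 26. *NAC038*, a NAC domain factor with the smallest p of all genes, had 4.12, 5.61 and 4.4 CPM at 18 hpg, against 0.195, 0.569 and 0.421 CPM at 12 hpg (log2FC 3.58 ± 0.62). AT4G08910, annotated as a homeobox protein, was barely detected at 12 hpg, with 1 read in all against 42 at 18 hpg. The ratio of 42.6 has a counting interval of 7.23 to 1721. The remaining 3 genes, AT2G01913, AT2G47200 and AT1G55207, encode uncharacterized proteins. AT2G47200 had 28.5, 39.5 and 22.3 CPM at 18 hpg, against 2.66, 3.51 and 5.12 CPM at 12 hpg, AT2G01913 had 2.95, 4 and 3.9 CPM at 18 hpg, against 0.735, 0.888 and 0.865 CPM at 12 hpg, and AT1G55207 had 1.12, 1.1 and 1.07 CPM at 18 hpg, against 0.0216, 0.0911 and 0.164 CPM at 12 hpg.

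The 250 bases upstream of the annotated gene start are shown for the 5 genes of highest level per kb at 18 hpg, because these genes of separate families moved together. The sequences are of the TAIR10.1 assembly and read 5′ to 3′ on the strand of the gene. Both strands were searched for 5 motifs, and capitals mark every match. In these windows the matches were to the AC element ACCNAC, which MYB factors bind, and to the auxin response element TGTCNC, and none overlapped another.
*CASPL1B2* (chr4:11006565-11006814, plus strand): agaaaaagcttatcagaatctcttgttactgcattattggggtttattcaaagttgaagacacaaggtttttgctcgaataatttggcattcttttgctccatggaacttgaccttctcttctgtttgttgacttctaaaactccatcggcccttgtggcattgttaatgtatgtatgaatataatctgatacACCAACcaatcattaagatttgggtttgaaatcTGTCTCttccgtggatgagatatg
AT2G23540 (chr2:10023900-10024149, plus strand): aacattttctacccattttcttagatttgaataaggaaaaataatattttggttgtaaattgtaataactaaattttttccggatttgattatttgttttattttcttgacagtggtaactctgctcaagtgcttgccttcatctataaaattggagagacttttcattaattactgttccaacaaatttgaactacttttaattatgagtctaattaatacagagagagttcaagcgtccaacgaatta
*CASPL1B1* (chr5:17943284-17943533, minus strand): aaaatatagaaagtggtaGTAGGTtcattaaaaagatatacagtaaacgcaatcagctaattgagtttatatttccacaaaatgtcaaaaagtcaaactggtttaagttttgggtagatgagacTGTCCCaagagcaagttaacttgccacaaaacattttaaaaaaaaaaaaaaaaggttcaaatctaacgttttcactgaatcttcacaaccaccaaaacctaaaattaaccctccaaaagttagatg
AT5G09480 (chr5:2951702-2951951, minus strand): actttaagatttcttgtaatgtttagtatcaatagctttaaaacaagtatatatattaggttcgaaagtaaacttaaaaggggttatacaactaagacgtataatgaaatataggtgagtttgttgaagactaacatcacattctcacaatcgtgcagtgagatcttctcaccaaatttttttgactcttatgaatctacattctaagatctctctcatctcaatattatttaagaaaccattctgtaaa
*CYP86A1* (chr5:23768112-23768361, minus strand): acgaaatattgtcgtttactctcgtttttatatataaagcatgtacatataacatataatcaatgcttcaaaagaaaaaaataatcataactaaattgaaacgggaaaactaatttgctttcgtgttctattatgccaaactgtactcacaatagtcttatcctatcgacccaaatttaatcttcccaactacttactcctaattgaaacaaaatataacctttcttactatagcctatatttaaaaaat

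Both *CASPL* windows held 1 AC element and 1 auxin response element, and the other 3 windows held none of either. The window of *CASPL1B2* lies inside AT4G20380. Over the windows of all 26 genes that rose, the AC element had a match in 10 (38.5%), against 24.3% of the 25860 windows of the genes tested. The auxin response element had a match in 9 (34.6%), against 24.2%. The L1 box TAAATGNA, a site of HD-ZIP IV factors of the epidermis, had a match in 5 (19.2%), against 9.51%. The G-box CACGTG had a match in 1 (3.85%), against 6.67%, and the GCC-box GCCGCC, a site of ERF factors, in 0 (0%), against 2%. These are counts of letters in a window and were not tested.

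Only 1 gene was called lower at 18 hpg. *MES1*, which encodes a methyl esterase that releases salicylic acid from its methyl ester, had 2.74, 2.12 and 2.17 CPM at 18 hpg, against 8.78, 4.19 and 8.7 CPM at 12 hpg. The groups did not overlap, and the log2FC was -1.62 ± 0.33 (adjusted p = 0.039). Another 3 genes passed the adjusted p at a smaller change and are named after their values were seen. *TPR14*, a tetratricopeptide repeat gene, had 22.4, 22.6 and 21.7 CPM at 18 hpg, against 35.2, 39.7 and 34.9 CPM at 12 hpg (log2FC -0.72 ± 0.13). AT4G27350 had a log2FC of -0.71 ± 0.14, and *SCL8*, a GRAS family gene, a log2FC of -0.41 ± 0.08 with 98.6, 111 and 104 CPM at 18 hpg, against 140.2, 141 and 137 CPM at 12 hpg. With *MES1*, the genes lower at an adjusted p under 0.05 numbered 4 (0.0155%).

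A further 9 genes with a log2FC below -1 had the next smallest p-values and were not called with 36 libraries. All 9 were called lower with the bend libraries alone, as were 0.863% of all genes. They were picked for small p-values from the same 6 libraries, so passing in that fit was favoured in advance. With a library left out of it, the adjusted p stayed under 0.05 in every fit for 6 of them. It rose to at most 0.095 for AT1G67050, 0.081 for *CYP78A9* and 0.071 for *CRR1*. Among the 9 was *MYB83*, a master switch of the secondary wall in xylem. It had 1.02, 1.36 and 1.66 CPM at 18 hpg, against 4.07, 3.35 and 3.76 CPM at 12 hpg (log2FC -1.46 ± 0.34, adjusted p = 0.079 with 36 libraries and 0.0046 with bends alone). AT1G68200, a zinc finger gene also named *CDM1*, had 4.02, 2.35 and 2.93 CPM at 18 hpg, against 11.3, 8.33 and 7.57 CPM at 12 hpg (log2FC -1.55 ± 0.36). AT5G23870, a pectin acetylesterase, had 2.92, 1.46 and 2.52 CPM at 18 hpg, against 7.2, 7.01 and 5.35 CPM at 12 hpg (log2FC -1.50 ± 0.38). *CYP78A9* had a log2FC of -1.57 ± 0.37, *CRR1* of -1.65 ± 0.44, AT1G61240 of -1.02 ± 0.22, AT2G30930 of -1.33 ± 0.34, AT1G67050 of -1.21 ± 0.31, and the kinase gene AT5G57670 of -1.33 ± 0.32.

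The suberin pathway was examined through a list of 14 enzymes and exporters. The median log2FC of the list was 1.05, and in 10 members all 18 hpg libraries lay above those at 12 hpg, as they did in 8.19% of all genes. Of the 14, *CYP86A1* alone was called with 36 libraries, and 8 were called higher and 0 lower with the bend libraries alone (5 to 9 with 1 of the 6 libraries left out, fewest without replicate 2 at 18 hpg or replicate 2 at 12 hpg). Called in all of these fits were *ABCG2*, *ABCG20*, *CYP86A1*, *FAR1* and *FAR4*. The share of all genes called higher with bends alone was 1.26%. The members of this and the other lists were chosen with earlier results of these data known. Such shares are thus given as background and do not test a list. *ABCG2*, a suberin exporter, had 91.4, 112 and 57.8 CPM at 18 hpg, against 25.8, 22.5 and 31.1 CPM at 12 hpg (log2FC 1.72 ± 0.40). *ABCG20*, of the same group, had a log2FC of 1.47 ± 0.43. The fatty acyl reductases that make suberin alcohols had log2FCs of 1.52 ± 0.59 (*FAR1*), 1.36 ± 0.36 (*FAR4*) and 1.06 ± 0.34 (*FAR5*). *GPAT5*, the suberin acyltransferase, had 87.6, 125 and 69.1 CPM at 18 hpg, against 41.6, 26.1 and 48.8 CPM at 12 hpg (log2FC 1.28 ± 0.42). *CYP86B1*, which hydroxylates very-long-chain acids, had 195, 242 and 129 CPM at 18 hpg, against 102, 73.5 and 107 CPM at 12 hpg. The feruloyl transferase gene *ASFT*, which adds the phenolic part, had a log2FC of -0.11 ± 0.32 and passed in neither fit. With the 36 libraries, adjusted p-values of the members other than *CYP86A1* were 0.079 or more.

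Of 7 MYB genes that regulate suberin, 0 were called with 36 libraries and 3 with the bend libraries alone (1 to 3 with 1 of the 6 libraries left out, fewest without replicate 2 at 18 hpg or replicates 1 or 2 at 12 hpg). *MYB93*, which is expressed in the endodermis over the primordium, had 34.2, 45.6 and 28.5 CPM at 18 hpg, against 9.65, 8.9 and 12.2 CPM at 12 hpg (log2FC 1.82 ± 0.44, adjusted p = 0.095 with 36 libraries and 0.00053 with bends alone). *MYB53* had a log2FC of 1.15 ± 0.40 and *MYB107* of 1.05 ± 0.32. Their calls with bends alone were lost without replicate 2 at 18 hpg or replicates 1 or 2 at 12 hpg for *MYB53* and without replicates 1 or 2 at 18 hpg or replicates 1, 2 or 3 at 12 hpg for *MYB107*, where its adjusted p reached 0.19, whereas *MYB93* was called in all 6. *MYB9* passed the adjusted p with bends alone at a log2FC of 0.85 ± 0.31. *MYB41*, *MYB92* and *MYB39* had log2FCs of 0.52, 0.32 and -0.07, and passed in neither. Among all genes, 1.26% were called higher with bends alone.

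Cutin genes overlap the suberin pathway in mechanism, and 6 of 17 were called higher (4 to 6 with 1 of the 6 libraries left out, fewest without replicate 2 at 18 hpg or replicates 2 or 3 at 12 hpg) and 1 lower with the bend libraries alone, with a median log2FC of 0.78. *ABCG11* was the only one called with 36 libraries. Among all genes, 1.26% were called higher and 0.863% lower with bends alone. *GPAT6*, an acyltransferase of cutin, had 39.5, 67.8 and 41.2 CPM at 18 hpg, against 8.48, 8.67 and 10.7 CPM at 12 hpg (log2FC 2.41 ± 0.53). *CYP86A2*, a hydroxylase, had 83.5, 125 and 73.6 CPM at 18 hpg, against 18.7, 20.2 and 26.6 CPM at 12 hpg (log2FC 2.11 ± 0.46). *LACS2*, which activates long-chain fatty acids, had 181, 275 and 152 CPM at 18 hpg, against 50.9, 49.1 and 64.9 CPM at 12 hpg (log2FC 1.88 ± 0.47). In these 3 genes no library at 18 hpg fell below any at 12 hpg. *BDG*, an epidermal hydrolase gene, had low levels of 0.548, 0.72 and 0.832 CPM at 18 hpg, against 0.238, 0.0911 and 0.0468 CPM at 12 hpg. *GPAT8*, another acyltransferase gene, was the member called lower, with 1.54, 1.44 and 1.62 CPM at 18 hpg, against 2.53, 4.3 and 3.27 CPM at 12 hpg (log2FC -1.13 ± 0.39), a call lost without replicate 2 at 18 hpg or replicate 2 at 12 hpg. Called higher in all of these fits were *ABCG11*, *CYP86A2*, *GPAT6* and *LACS2*.

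Wax genes had a median log2FC of 0.94 over 10 members, of which 3 were called higher with the bend libraries alone (1 to 3 with 1 of the 6 libraries left out, fewest without replicate 2 at 18 hpg) and 0 with 36 libraries. *CER3*, which acts in alkane formation, had 14.4, 22.2 and 19.6 CPM at 18 hpg, against 7.83, 10.1 and 8.56 CPM at 12 hpg (log2FC 1.09 ± 0.23, adjusted p = 0.054 with 36 libraries). *CER26*, an elongation partner, had 5.74, 9.96 and 4.69 CPM at 18 hpg, against 1.62, 1.37 and 2.27 CPM at 12 hpg (log2FC 1.96 ± 0.54). The lipid transfer gene *LTPG1* had a log2FC of 1.50 ± 0.64. In the elongation list of 16 members, which supplies very-long-chain acyl-CoA to all these polymers, the ketoacyl-CoA synthases *KCS8* (log2FC 3.83 ± 0.85) and *KCS17* (2.34 ± 0.66) were called with bends alone. *KCS8* had 2.56, 4.26 and 3.2 CPM at 18 hpg, against 0.281, 0.25 and 0.164 CPM at 12 hpg. The median of the elongation list was 0.25. Beside both lists, 1.26% of all genes were called higher with bends alone.

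**Figure D2:**
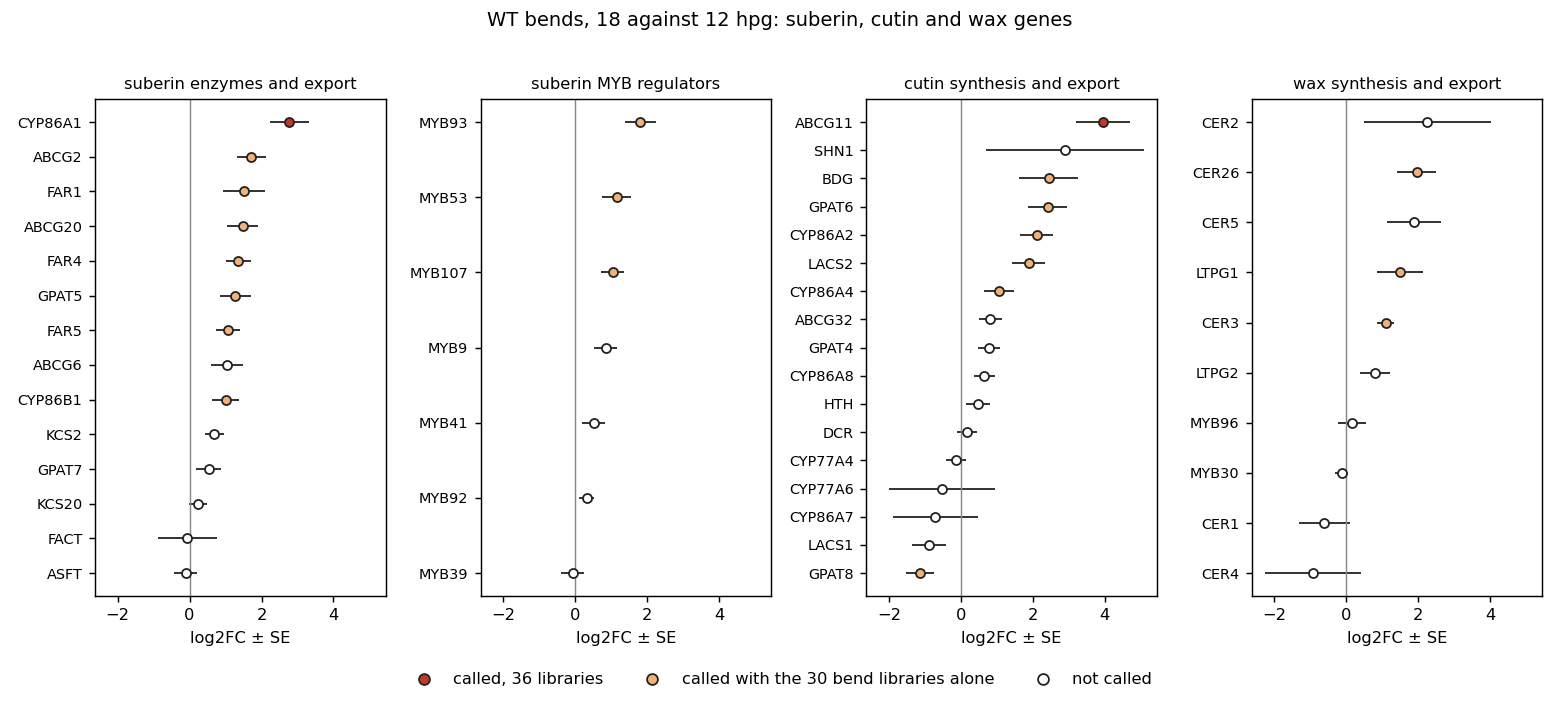
Log2FC ± SE of WT bends, 18 over 12 hpg, from the fit of 36 libraries, for each tested member of the suberin, suberin MYB, cutin and wax lists. Filled red points were called with 36 libraries (*CYP86A1* and *ABCG11*), orange points with the 30 bend libraries alone, and open points in neither.

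Genes of the Casparian strip, the other barrier of the endodermis, had lower levels. All 10 members of the list had a log2FC below 0, with a median of -2.18. *CASP1*, a scaffold protein of the strip, had 56.7, 24.8 and 36.4 CPM at 18 hpg, against 294, 269 and 172 CPM at 12 hpg. *ESB1*, a dirigent-like protein that places the lignin, had 88.1, 56.2 and 65.6 CPM at 18 hpg, against 412, 375 and 242 CPM at 12 hpg (log2FC -2.29 ± 0.97), and the peroxidase gene *PER64* had 37.2, 25 and 23.6 CPM at 18 hpg, against 149, 128 and 82 CPM at 12 hpg (log2FC -2.06 ± 0.99). In 9 of the 10 all libraries at 18 hpg lay below all at 12 hpg, as they did in 10.9% of all genes. With 36 libraries 0 of the 10 passed by edgeR (2 at an unadjusted p under 0.05), with adjusted p-values of 0.40 or more, and with bends alone 6 were called lower (*CASP1* to *CASP4*, *ESB1* and *PER64*). That count was 2 to 6 with 1 of the 6 libraries left out, fewest without replicates 2 or 3 at 18 hpg, and *ESB1* and *PER64* were in all of these fits. The summed level of the list was 314 to 369 CPM at 18 hpg, against 805 to 1312 CPM at 12 hpg. Among all genes, 0.863% were called lower with bends alone.

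Root hair genes also lay below 0, and 1 of 12 was called with the bend libraries alone and 0 with 36 libraries, where 0 of the 12 had an unadjusted p under 0.05 by edgeR. Their median log2FC was -1.59, all 12 were below 0, and the summed level was 244 to 348 CPM at 18 hpg, against 641 to 1021 CPM at 12 hpg. In 10 of the 12 all libraries at 18 hpg lay below all at 12 hpg, as they did in 10.9% of all genes. On the 6 libraries of the comparison alone, edgeR called 5 of the 12 lower and DESeq2 9, against 171 and 421 of all genes. The share of all genes called lower with bends alone was 0.863%. *RSL2*, a regulator of hair growth, had 15.1, 11.7 and 11.5 CPM at 18 hpg, against 38.7, 33.4 and 24.3 CPM at 12 hpg (log2FC -1.33 ± 0.66). Casparian strip and root hair genes are expressed in young, differentiating cells of the endodermis and the epidermis. None of the 22 markers of both lists was at 0 in any of the 6 libraries. Their part in the changes of the other lists was not tested.

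Xylem and phloem lists had medians below 0, with 12 of 13 xylem genes and 6 of 11 phloem genes below 0. Of 13 xylem genes, 2 were called lower with bends alone, against 0.863% of all genes. They were *MYB83* and *MYB46* (log2FC -1.01 ± 0.32), both switches of the secondary wall. The call of *MYB46* was lost without replicates 2 or 3 at 18 hpg or replicates 1 or 2 at 12 hpg, with an adjusted p of up to 0.13, and that of *MYB83* was kept in all 6 fits. The cellulose synthase gene *CESA7* had a log2FC of -0.85 ± 0.29. Of 11 phloem genes, 4 were called lower with bends alone, against 0.863% of all genes. The count was 0 to 4 with 1 of the 6 libraries left out, fewest without replicate 2 at 18 hpg. *SEOR1*, a protein of sieve elements, had 19.8, 13.5 and 19.3 CPM at 18 hpg, against 25.5, 50.7 and 52.2 CPM at 12 hpg (log2FC -1.29 ± 0.48), and *NAC045*, *NAC086* and *NEN4*, which act in the clearing of the sieve element nucleus, had log2FCs of -1.44, -1.26 and -1.16. The medians were -0.39 for xylem and -0.51 for phloem, and 0 members of either list passed with 36 libraries.

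Regulators of the primordium mostly stood near 0. Among 17 early lateral root regulators the median log2FC was -0.06, and 0 were called in either fit. *PUCHI*, an AP2/ERF factor of the early primordium, had 15.9, 14.5 and 19.7 CPM at 18 hpg, against 18.4, 20.2 and 14.1 CPM at 12 hpg. *LBD16*, which acts in the first division of the founder cell, had 13.7, 11.9 and 14.6 CPM at 18 hpg, against 15.3, 17.9 and 12.9 CPM at 12 hpg. Both had overlapping groups, as had *LBD18* (log2FC -0.04 ± 0.26) and *LBD29* (log2FC 0.24 ± 0.23). *GATA23*, a marker of founder cells, had 0.992, 0.318 and 0.723 CPM at 18 hpg, against 1.6, 1.96 and 1.43 CPM at 12 hpg, and its log2FC of -1.30 ± 0.90 passed in neither fit. The receptor kinase gene *ACR4* had a log2FC of 0.48 ± 0.22, with an adjusted p of 0.040 with bends alone, under 0.05 in 3 of 6 fits with a library left out.

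The PLETHORA factors, which pattern the primordium and later its meristem, had a median log2FC of 0.23 over 7 members. *ANT* had 12.2, 14.6 and 10.2 CPM at 18 hpg, against 6.73, 8.61 and 7.69 CPM at 12 hpg (log2FC 0.68 ± 0.34, adjusted p = 0.011 with bends alone and up to 0.095 with a library left out). *PLT5* had 9.16, 9.41 and 8.5 CPM at 18 hpg, against 8.33, 6.26 and 6.43 CPM at 12 hpg, *PLT3* had a log2FC of 0.31 ± 0.25 and *PLT7* of 0.23 ± 0.28. *PLT1*, *PLT2* and *BBM*, which mark the meristem, had log2FCs of -0.02, 0.03 and -0.13 with SEs of 0.44 to 0.62, at under 3 CPM at 18 hpg, and their signs changed with the libraries left out. Of 42 cell cycle genes, 28 had a log2FC above 0, the median was 0.05, and 0 were called. *CYCD3;1*, a cyclin of cell cycle entry, had 10.5, 12.3 and 12.1 CPM at 18 hpg, against 5.78, 6.35 and 7.48 CPM at 12 hpg (log2FC 0.83 ± 0.37, adjusted p = 8.4e-05 with bends alone).

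SHI/STY zinc finger genes, which promote auxin synthesis in other organs, had a median log2FC of 0.82 over 9 members. With bends alone 3 were called higher (*STY2* not without replicate 2 at 18 hpg), against 1.26% of all genes. In 6 the 18 hpg libraries lay above all those at 12 hpg, as they did in 8.19% of all genes. *SRS5* had 12.9, 15.5 and 14.7 CPM at 18 hpg, against 6.62, 4.69 and 4.91 CPM at 12 hpg, and *STY2* had 1.1, 1.8 and 0.876 CPM at 18 hpg, against 0.303, 0.41 and 0.21 CPM at 12 hpg. *SRS7* had 0.522, 1.25 and 1.01 CPM at 18 hpg, against 0.108, 0 and 0 CPM at 12 hpg, so it was at 0 in 2 of the libraries at 12 hpg. *PDF1*, an epidermal gene of the outer cell layer, had 0.835, 4.41 and 3.61 CPM at 18 hpg, against 0.13, 0.114 and 0.0234 CPM at 12 hpg (log2FC 5.01 ± 1.29), and was the only one of 8 members of the protoderm list called with bends alone.

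Auxin genes held calls in both directions with bends alone, while most *Aux/IAA* genes lay below 0. Of these 28 repressors of the auxin response, 22 had a log2FC below 0 and 6 above, with a median of -0.20. In 11 all 18 hpg libraries lay below those at 12 hpg and in 3 above, against 10.9% and 8.19% of all genes. With bends alone 1 was called higher and 1 lower, against 1.26% and 0.863% of all genes. *IAA27* had 34.7, 45.7 and 38.2 CPM at 18 hpg, against 15, 21 and 17.6 CPM at 12 hpg and was called higher with bends alone (log2FC 1.15 ± 0.37), and *IAA31* was called lower (log2FC -1.86 ± 0.82), but not without replicate 2 at 18 hpg or replicates 2 or 3 at 12 hpg. *IAA2* and *IAA17* had log2FCs of -0.46 ± 0.13 and -0.81 ± 0.28, with adjusted p-values of 0.036 and 0.0062 with bends alone, and up to 0.15 and 0.054 with a library left out. *GH3.1*, an auxin-conjugating enzyme, had 9.21, 10 and 10.1 CPM at 18 hpg, against 18.3, 15.8 and 14.6 CPM at 12 hpg. The synthesis gene *YUC6* had 47.7, 45.5 and 41.3 CPM at 18 hpg, against 29.8, 29.3 and 27.3 CPM at 12 hpg (log2FC 0.64 ± 0.17), and *TAR2* had a log2FC of 0.81 ± 0.36. Among 17 tested transporters, *PIN5*, an auxin carrier of the endoplasmic reticulum, was the only one called with bends alone. It had 10.5, 5.89 and 6.72 CPM at 18 hpg, against 2.68, 3.78 and 4.3 CPM at 12 hpg. Its call was lost without replicate 1 at 18 hpg or replicate 1 at 12 hpg. *LAX3*, an influx carrier of cells over the primordium, had 81.1, 77.7 and 98.8 CPM at 18 hpg, against 52, 72.1 and 61.5 CPM at 12 hpg (log2FC 0.47 ± 0.21).

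Cytokinin genes followed with single members. Of 13 synthesis and turnover genes, only the cytokinin oxidase gene *CKX1* was called higher with bends alone, against 1.26% of all genes. It had 4.93, 3.45 and 3.83 CPM at 18 hpg, against 1.54, 2.09 and 1.45 CPM at 12 hpg (log2FC 1.26 ± 0.32). Of 10 type-A response regulators, which dampen cytokinin signalling, 1 was called higher and 1 lower in that fit, against 1.26% and 0.863% of all genes. *ARR7* was higher with 7.39, 9.79 and 6.79 CPM at 18 hpg, against 4.13, 4.14 and 3.3 CPM at 12 hpg. *ARR16* was lower with 0.522, 0.106 and 0.46 CPM at 18 hpg, against 1.45, 1.73 and 1.38 CPM at 12 hpg. The call of *ARR7* was lost without replicate 2 at 18 hpg or replicate 3 at 12 hpg, and that of *ARR16* without replicate 2 at 18 hpg or replicate 2 at 12 hpg. The median of the regulators was 0.08, with members on both sides of 0.

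Wall-loosening genes of the polygalacturonase family, which cut pectin as cells separate, were called higher with bends alone in 3 of 11 members of their list (2 to 3 with 1 of the 6 libraries left out, fewest without replicates 2 or 3 at 18 hpg or replicates 1, 2 or 3 at 12 hpg). *QRT2* had 17.7, 25.7 and 12.7 CPM at 18 hpg, against 4.74, 4.07 and 6.43 CPM at 12 hpg (log2FC 1.88 ± 0.44). *PGLR* had 0.0783, 0.911 and 0.416 CPM at 18 hpg, against 0.0649, 0 and 0 CPM at 12 hpg, and *ADPG2* 0.157, 0.36 and 0.591 CPM at 18 hpg, against 0.0433, 0 and 0 CPM at 12 hpg. Both stood at or near 0 at 12 hpg, so their fitted log2FCs of 4.27 and 4.44 depend on the prior count of the fit. Among all genes, 1.26% were called higher with bends alone.

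Lists of water, stress and nutrient genes held further calls. Of 17 aquaporin genes 2 were called lower with bends alone, against 0.863% of all genes. They were *TIP1;1* (log2FC -1.35 ± 0.73) and *PIP2;3* (-1.02 ± 0.36), and the median of the list was -0.66. *PIP2;3* had 124, 92.9 and 85.8 CPM at 18 hpg, against 347, 153 and 115 CPM at 12 hpg, with overlapping groups. The calls rested on single libraries: the count of aquaporins was 0 to 5 with 1 of the 6 libraries left out, fewest without replicate 1 at 12 hpg, and the adjusted p of *PIP2;3* reached 0.43. The dehydrin gene *COR47* had 1374, 1196 and 1130.4 CPM at 18 hpg, against 3277, 2454 and 2271 CPM at 12 hpg and was called lower with bends alone, though not without replicate 1 at 12 hpg, and *ERD10* had 455, 486 and 479 CPM at 18 hpg, against 735, 793 and 702 CPM at 12 hpg. All 13 tested genes of the ABA and dehydration list lay below 0. Of 11 phenylpropanoid genes, which feed lignin, 10 lay below 0 and 0 were called. *CCoAOMT1* had 976, 969 and 1214 CPM at 18 hpg, against 1528, 1881 and 1819.9 CPM at 12 hpg.

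Iron uptake genes had higher means at 18 hpg with a wide spread. *FRO2*, the ferric reductase of the root surface, had 339, 212 and 52.3 CPM at 18 hpg, against 46.4, 17.4 and 44.7 CPM at 12 hpg, so its lowest library at 18 hpg lay just above the highest at 12 hpg. *IRT1*, the iron transporter, had 697, 379 and 206 CPM at 18 hpg, against 134, 94.3 and 159.9 CPM at 12 hpg, and *BHLH38*, a regulator of both, had 64.3, 26.8 and 21.1 CPM at 18 hpg, against 9.3, 13.2 and 20 CPM at 12 hpg. All 3 were called higher with bends alone, with adjusted p-values of 0.011, 0.034 and 0.047. Of the 17 mineral nutrition genes these 3 were called higher and 1 lower, against 1.26% and 0.863% of all genes. In each of the 3 the March library of 18 hpg (replicate 1) was the highest. These calls were lost without replicate 1 at 18 hpg or replicate 2 at 12 hpg for *FRO2*, without replicates 1 or 2 at 18 hpg or replicates 1, 2 or 3 at 12 hpg for *IRT1* and without replicates 1 or 2 at 18 hpg or replicates 1 or 2 at 12 hpg for *BHLH38*, with adjusted p-values of up to 0.070, 0.21 and 0.37. The sulfate transporter gene *SULTR1;1* was called lower in the same fit (log2FC -1.96 ± 0.80), but not without replicates 1 or 2 at 18 hpg or replicate 3 at 12 hpg. Of 12 clock genes, 3 of the morning, *PRR7*, *PRR9* and *CCA1*, were called higher with bends alone, against 1.26% of all genes. The count was 0 to 3 with 1 of the 6 libraries left out, fewest without replicate 1 at 18 hpg or replicate 1 at 12 hpg. The clock list had 6 members above 0 and 6 below, with a median log2FC of 0.16. At an unadjusted p under 0.05 by edgeR with 36 libraries, 4 were higher and 3 lower, against 5.42% and 5.17% of all genes. *PRR7* had 13.5, 13.3 and 11.7 CPM at 18 hpg, against 5.06, 7.63 and 6.5 CPM at 12 hpg and *CCA1* 35, 21.7 and 20.1 CPM at 18 hpg, against 10.5, 13.8 and 14 CPM at 12 hpg. The time of day of each harvest is not given, and its part in these values was not tested.

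**Figure D3:**
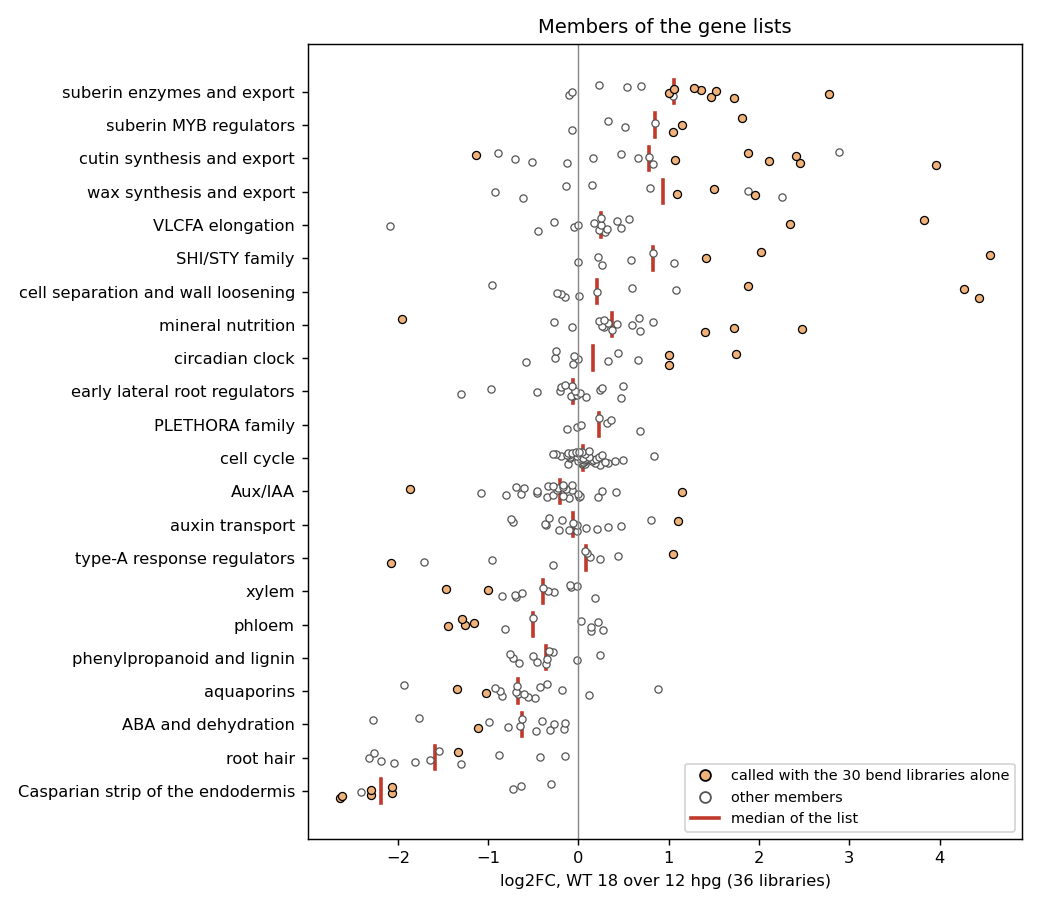
Log2FC of WT bends, 18 over 12 hpg (36 libraries), of each tested member of 22 gene lists. Orange points were called with the 30 bend libraries alone, and red lines give the list medians, which run from 1.05 for suberin enzymes to -2.18 for the Casparian strip.

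After 18 hpg the means of these genes went on upward. In WT bends, 25 of the 26 had a higher mean at 24 than at 18 hpg, 24 had a higher mean at each step to 30 hpg, and 20 at each step to 36 hpg. The mean was highest at 36 hpg in 20 genes, at 30 hpg in 4, at 24 hpg in 1 and at 18 hpg in 1. The share of all genes with such a course was not computed, so these counts describe the 26 genes only. *CYP86A1* had 407, 610.5 and 663 CPM at 24 hpg and 1048, 737 and 780.5 CPM at 36 hpg. In WT ‘No LR’ segments, which were taken above the bend and hold no primordium, the mean of all 26 genes lay above that of bends at 12 hpg. *CYP86A1* had 63.1, 901 and 366 CPM there, with replicate 1 far below the others. *MES1* had 1.53, 2.05 and 2.21 CPM at 24 hpg and 4.13, 2.96 and 3.23 CPM at 36 hpg. The later steps share the libraries at 18 hpg with the comparison that picked the genes. The ‘No LR’ means are set against its libraries at 12 hpg. Picking genes for low values at 12 hpg favours higher means in other groups. None of these differences was tested here.

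**Figure D4:**
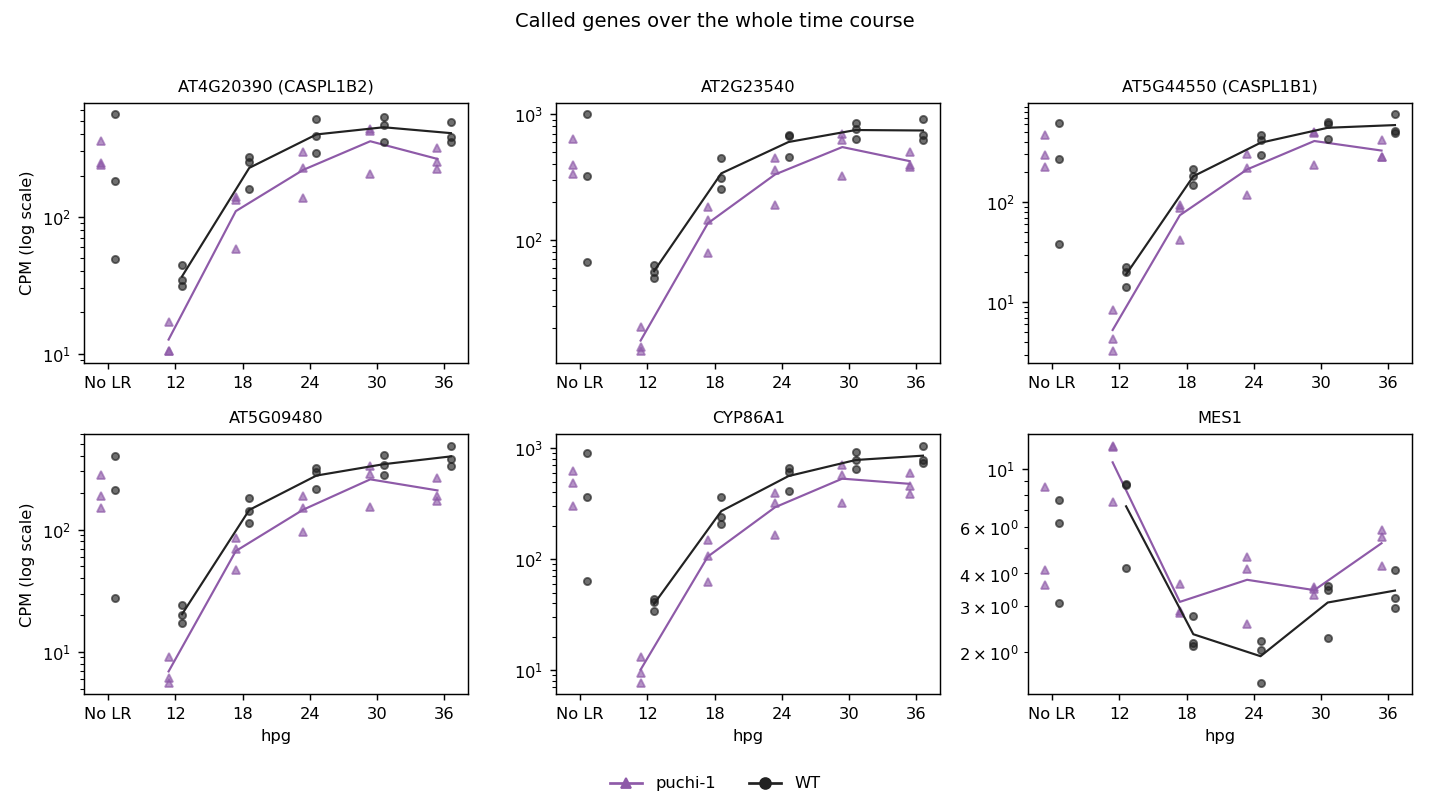
CPM (log scale) of 6 called genes in every library of *puchi-1* (triangles) and the WT (circles), in ‘No LR’ segments and at 12 to 36 hpg. Lines join the means of the bends. The means of the 5 genes higher at 18 hpg are higher again at 24 hpg in both genotypes, and the means of *MES1* stay below those at 12 hpg.

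The same interval was measured in *puchi-1* bends on other libraries. There 123 genes were called (0.475% of genes tested), 97 higher (0.375%) and 26 lower (0.1%). Of the 27 genes called in the WT, 20 were called in *puchi-1* in the same direction, which is 74.1% of the WT genes and 16.3% of those of *puchi-1*. Among the 26 that rose in the WT, 25 had a log2FC above 0 in *puchi-1*, where the median over all genes was 0.02. Of the 26, 19 passed the adjusted p, which 0.452% of all genes did in that direction. Both contrasts came from the same fit and share each gene’s estimate of the spread. Genes called in the WT were thereby favoured to pass in *puchi-1*. *CYP86A1* had 148, 106 and 62.2 CPM at 18 hpg against 7.73, 13.1 and 9.51 CPM at 12 hpg in *puchi-1*, a log2FC of 3.38 ± 0.56 beside 2.77 ± 0.54 in the WT. *CASPL1B1* had a log2FC of 3.80 ± 0.61 in *puchi-1* and 3.26 ± 0.59 in the WT, and *MES1* of -1.78 ± 0.33 in *puchi-1* and -1.62 ± 0.33 in the WT. The difference of the changes, *puchi-1* minus WT, was 0.61 ± 0.72 for *CYP86A1* and 0.54 ± 0.77 for *CASPL1B1* (SE), within its error in both. At 18 hpg all 26 genes had a lower mean in *puchi-1* than in the WT, as had 51.7% of all genes. In 24 of them all 3 *puchi-1* libraries lay below all 3 of the WT, as in 9.02% of all genes. The 26 genes were picked for high values in these WT libraries, which favours such counts, so they do not test the genotype. At 12 hpg, 24 of the 26 also had a lower mean in *puchi-1* than in the WT.

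A test of the difference between the genotypes’ changes called 0 genes with edgeR on 36 libraries, where the smallest adjusted p was 0.56 and 463 genes (1.79%) had an unadjusted p under 0.05. The gene with that smallest p was *CER3*, whose WT levels are given above. In *puchi-1* it had 6.13, 3.92 and 5.26 CPM at 18 hpg against 7.78, 6.91 and 8.79 CPM at 12 hpg. Its log2FC was thus -0.61 ± 0.24 in *puchi-1* and 1.09 ± 0.23 in the WT, with no overlap of time points in either genotype. The difference of *CER3* passed with DESeq2 on 36 libraries (adjusted p = 0.012), where it was the only gene, and with edgeR on the 30 bend libraries (adjusted p = 0.0044), again alone. DESeq2 on the 12 libraries of these groups gave 3 genes, *CER3*, *PME2* and AT2G39040, and the other two are named after their values were seen.

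None of the 26 genes had an unadjusted p under 0.05, and the smallest was 0.0697, for *ABCG11*. *ABCG11* had 0.111, 0.123 and 0.204 CPM at 18 hpg against 0, 0.0379 and 0.196 CPM at 12 hpg in *puchi-1*, with a log2FC of 1.16 ± 1.14 beside 3.96 ± 0.75 in the WT. *CYP77B1* was at 0 in all 6 of these *puchi-1* libraries, against 388 reads in the WT at 18 hpg and 18 at 12 hpg. Its fitted difference of -4.38 had an SE of 9627, so the test could not pass for this gene. *CAD9* was at 0 in *puchi-1* at 12 hpg, and its difference of 1.54 had an SE of 3.08. For such genes a p above 0.05 does not show that the genotypes changed alike. The difference for *ABCG11* was -2.80 ± 1.48 (SE) and did not pass.

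**Figure D5:**
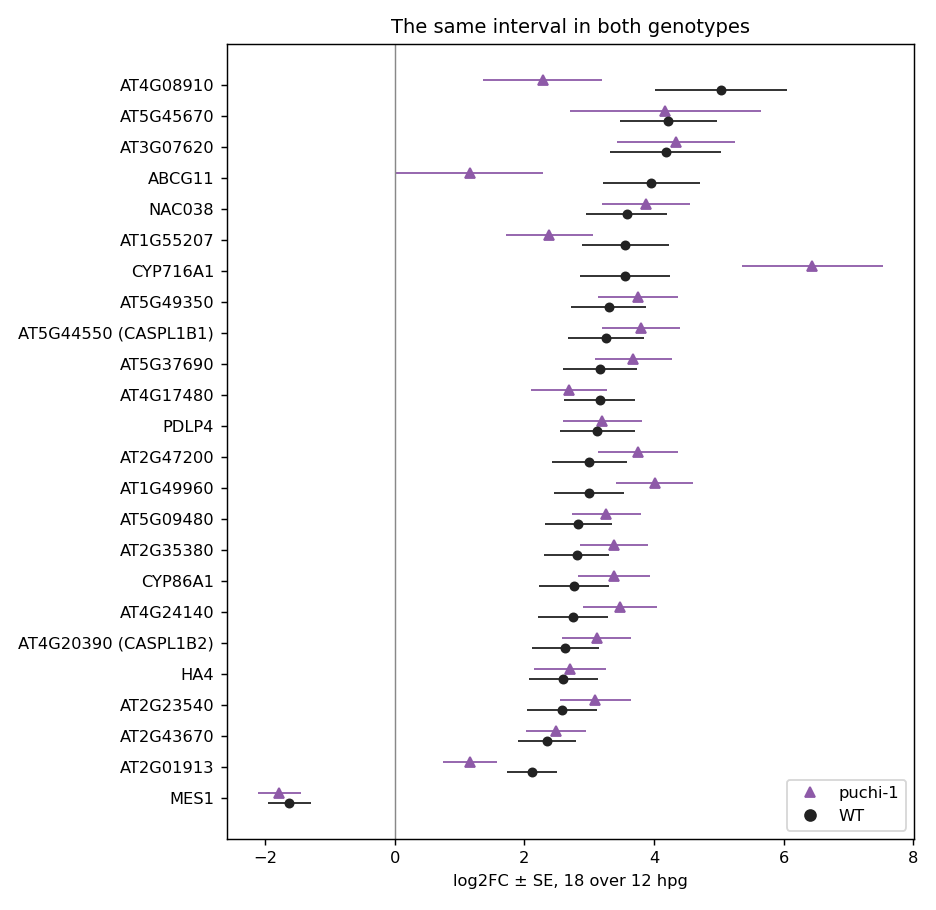
Log2FC ± SE of 18 over 12 hpg in *puchi-1* (triangles) and the WT (circles) for the 24 called genes with reads in *puchi-1* at 12 hpg. Errors of the genotypes overlap for most genes, and the largest gaps are in *ABCG11*, AT4G08910 and *CYP716A1*, which had low counts.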

How the data were processed

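Poly(A) RNA of 36 root samples was sequenced as stranded, paired reads on a NovaSeq instrument. Per the submitters’ notes, TopHat2 2.1.1 over Bowtie2 2.3.5.1 served for alignment against TAIR10. Reads with more than 6 mismatches were dropped by the authors, and featureCounts 2.0.0 gave strand-specific totals per gene. The deposited values are raw counts, with no filter. Rows without a locus tag held under 0.2% of the counts of the 6 libraries and were left unnamed.

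Counts were fitted here with edgeR (version 4.0.16; R version 4.3.3), TMM scaling and quasi-likelihood tests, over 12 groups and 36 libraries with 24 residual degrees of freedom (biological coefficient of variation 0.268). Genes needed 15 reads summed over all libraries. Adjusted p-values are those of Benjamini and Hochberg, taken over 25889 genes. CPM are counts scaled to 1000000 reads with TMM sizes. The edgeR log2FC is that of the fit at its default prior count. A prior count of 2 was used for the log2 CPM behind the correlations between samples. Replicates are biological per the labels, and their counts differed beyond sampling noise; intervals on counts cover counting error only. Named genes were all called genes, the 10 smallest p-values below a log2FC of -1, in each list the members that passed or else the 2 smallest p-values, with fixed primordium regulators and *CYP86A1*; further list members named as called with the bend libraries alone were chosen after their values were seen. Members and the 37 lists were chosen with earlier results of these data known. The fit was tested on simulated data. Alternatives were DESeq2 (version 1.42.0), other filters, scalings, libraries and covariates. The ‘No LR’ segments are placed at 12 hpg by the study and at 9 h by the labels. Sequences and names are from RefSeq (TAIR10.1).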

Additional observations from a re-analysis of the deposited data

Results flagged for a closer look

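*CER3*, a wax gene, stood out because its libraries moved in opposite directions in the 2 genotypes. In *puchi-1* all 3 libraries at 18 hpg lay below all 3 at 12 hpg, and in the WT all 3 lay above. The difference of the changes, *puchi-1* minus WT, was -1.70 ± 0.33 on the log2 scale (SE; adjusted p = 0.56 with edgeR on 36 libraries). The unadjusted p was 2.2e-05. The adjusted p fell under 0.05 in 3 of the alternatives tried, as given above. The cause of the difference was not tested.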

How the results depend on the processing

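Of 153 named genes, 10 that were called in no fit changed sign under at least 1 alternative (*ASFT*, *BBM*, *JAZ1*, *LBD18*, *LBD29*, *MYB39*, *PLT1*, *PLT2*, *PLT7* and *PUCHI*), and no value past the threshold changed sign. The number of genes called in the WT moved widely. DESeq2 called 193 with 36 libraries (171 higher, 22 lower) and 732 with the 6 libraries alone (311 and 421). edgeR called 309 with the 6 libraries alone (138 and 171), 542 with the 30 bend libraries (322 and 220), 410 with the month of the titles as covariate (245 and 165), and 0 with the 18 WT libraries (0 and 0). With only the June and July libraries of both groups, chosen after seeing the data, it called 0 (0 and 0). The filter by filterByExpr gave 2 lower genes. Leaving out each library gave 0 to 17 calls (0 to 17 higher, 0 lower). With the bend libraries alone, again chosen after seeing the data, the calls without replicates 1, 2 and 3 at 18 hpg were 539, 271 and 464 (314, 200 and 320 higher; 225, 71 and 144 lower), and without replicates 1, 2 and 3 at 12 hpg 429, 401 and 445 (269, 267 and 292 higher; 160, 134 and 153 lower). Where edgeR called 0 genes, 859 to 1446 had an unadjusted p under 0.05 in each direction. All 27 genes kept an adjusted p under 0.05 with DESeq2, with the bend libraries and with the month covariate, and 24 by edgeR on the 6 libraries. With the replicate block 21 genes were called, 21 higher and 0 lower, but same-numbered samples share only a number: their deviations correlated at 0.29, -0.097 and 0.17, and not every sample correlated best with its own number. In *puchi-1* DESeq2 called 407 with 36 libraries and 1096 with the groups compared alone, edgeR 851 with those groups alone, 887 with bends alone, 533 with the month, and 106 with the replicate block, and leaving out each library gave 1 to 104. The test of the difference gave 1 gene with DESeq2 on 36 libraries, 3 with DESeq2 on the groups compared alone, and 1 with the bend libraries. Scaling by DESeq2 size factors and no filter on counts left 27 calls each. The cause of these shifts was not tested. The month in the titles differs in part between the groups, so month and time point cannot be fully told apart, and genes under 1 CPM rest on few reads.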

Other observations

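The gene lists not yet described held few calls. In the list of stem cell niche and root cap genes, 0 of 16 were called by edgeR in either fit, and 3 had an unadjusted p under 0.05 with 36 libraries. *WOX5*, a marker of the quiescent centre, had 2.58, 2.48 and 2.72 CPM at 18 hpg, against 1.97, 1.53 and 1.45 CPM at 12 hpg, and *SHR*, a regulator of the ground tissue, had 27.8, 30.5 and 27.2 CPM at 18 hpg, against 37.4, 33.7 and 32.6 CPM at 12 hpg. The groups did not overlap in either gene, although neither passed. HD-ZIP III and *CUC* genes had a median log2FC of 0.03, with 0.29 ± 0.16 for *PHB* and -0.15 ± 0.08 for *CNA*. Cytokinin response factors had a median of -0.02, with 0.42 ± 0.35 for *CRF1* and -0.17 ± 0.13 for *CRF3*. Auxin synthesis genes had a median of 0.16, auxin transport genes -0.06, *GH3* genes -0.32, and cytokinin synthesis and turnover genes 0.21, where *IPT7*, a cytokinin synthase gene, had 18.8, 18.8 and 18.7 CPM at 18 hpg, against 10.1, 16.2 and 12.3 CPM at 12 hpg.

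Lists of stress and handling had 0 calls by edgeR in either fit, and of their genes only 2 of the hypoxia list had an unadjusted p under 0.05 with 36 libraries. The median log2FC was -0.49 for jasmonate and wounding, -0.42 for touch, 0.25 for defence, -0.02 for heat shock and -0.08 for hypoxia. The hypoxia gene *PDC1* had 36, 25.4 and 39.4 CPM at 18 hpg, against 57.7, 65 and 45.6 CPM at 12 hpg. *MYC2*, the main activator of the jasmonate response, had 111, 410.1 and 466 CPM at 18 hpg, against 345, 549 and 529 CPM at 12 hpg, and *ZAT12*, a stress zinc finger gene, had 53.6, 146 and 173 CPM at 18 hpg, against 146, 196 and 191 CPM at 12 hpg. In both, as in *JAZ1*, replicate 1 at 18 hpg was the lowest of the 6 libraries. Photosynthesis genes had a median within 0.01 of 0, ethylene genes -0.32, and flavonoid genes -0.56, where *F3H*, an early enzyme of the pathway, had 382, 225 and 236 CPM at 18 hpg, against 484, 591 and 591 CPM at 12 hpg. The iron genes *FRO2*, *IRT1* and *BHLH38* were highest in that same replicate 1 at 18 hpg.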
